A study of Mus musculus with 20 samples.

Results

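Srebf2, Scap, Insig1, Insig2, Stard4, Mylip and Lrp1 are 7 genes of cholesterol sensing and lipoprotein uptake, chosen by symbol from the 13319 genes counted in mouse liver. All 7 were listed in the count files and all 7 had enough reads to be tested. The livers came from individual male mice that ate a western diet while receiving their daily treatment over 16 days. There were 5 groups of 4 mice each, giving 20 libraries of total RNA. One group was the control. The other groups received glucagon, a pancreatic peptide hormone that raises cyclic AMP in hepatocytes, or T3, the active thyroid hormone, or both hormones together (the combination), or one molecule in which glucagon and T3 are joined (the hybrid). The labels name the first 4 groups in words and give the hybrid group only a short code, so that group was identified by elimination from the design text. No source used here gives the doses, so the combination and the hybrid are compared as given, without knowing how much of each hormone the mice received.

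Cholesterol in the membrane of the endoplasmic reticulum is read by a small set of proteins. SCAP escorts the precursor of SREBP-2, the product of Srebf2, to the Golgi, where proteases free its transcription factor domain. When sterol is plentiful, INSIG-1 or INSIG-2 holds SCAP back. Insig1 is itself a target of SREBP, so its transcript is widely used as a readout of SREBP activity, and liver also makes Insig2 from a promoter that insulin lowers. STARD4 carries sterol between membranes through the cytosol and is another SREBP-2 target. On the uptake side, MYLIP (also called IDOL) is a ubiquitin ligase, induced by the oxysterol receptors LXR, that sends receptors of the LDL receptor family for degradation. LRP1 is a large endocytic receptor of that family that clears lipoprotein remnants in hepatocytes and is also made by macrophages and fibroblasts.

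The promoters of Insig1, the member with the widest range over the groups, and of Srebf2, the regulator above it, are shown because they hold the sterol-pathway and receptor motifs compared here. Each sequence is the stretch of the RefSeq promoter window (build GRCm38.p6) that lies before the first annotated transcript base, read on the gene's + strand. In Insig1 the capitals mark ATTGG, the NF-Y box CCAAT read on the opposite strand, and then AGGTCA running into CACGTG. In Srebf2 they mark TCACCCCA, a match to the SREBP element, and again ATTGG.
Insig1, chr5:28071162-28071362: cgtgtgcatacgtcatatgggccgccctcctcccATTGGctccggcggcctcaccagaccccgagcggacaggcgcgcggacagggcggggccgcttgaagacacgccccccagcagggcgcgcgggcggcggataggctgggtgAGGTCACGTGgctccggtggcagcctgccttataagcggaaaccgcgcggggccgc
Srebf2, chr15:82147019-82147180: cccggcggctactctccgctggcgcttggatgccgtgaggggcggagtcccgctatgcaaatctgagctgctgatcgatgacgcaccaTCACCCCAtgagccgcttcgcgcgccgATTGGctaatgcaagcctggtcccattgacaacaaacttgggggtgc

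Motifs were searched on both strands of the whole 300-base windows, 250 bases before to 50 after each RefSeq start, and were chosen with these promoters in view. The search covered 9 windows for 6 of the 7 members, and Stard4 was not searched. The SREBP element TCACNCCA was found in the Srebf2 window and in no other searched member's window, and in 4.362% of all 32851 windows. The nuclear receptor half-site AGGTCA, the core that thyroid hormone receptors and their relatives read, was found in the Insig1 window alone among the members' windows, 105 to 100 bases before the RefSeq start, and in 16.255% of all windows. The E-box CACGTG, which shares 2 bases with that half-site in Insig1, was found in Insig1 and in both Scap windows, and in 7.15% of all windows. The NF-Y box CCAAT lies in windows of Insig1, Insig2, Mylip and Srebf2, against 37.408% of all windows. The Sp1 box GGGCGG was found in windows of all 6 members and in 35.658% of all windows, and TGACG, the core of the cyclic AMP response element, in those of Insig1, Insig2 and Srebf2 and in 20.812%. A member is named where any of its windows holds the motif, while the percentages are of single windows, so they are not like for like. These are matches of letters and not measured binding.

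The libraries held between 6091917 and 23195658 counted reads, and the members between 82 and 29784 reads in a library. Values are given as normalised CPM, counts scaled to a common library total with edgeR's TMM factors, and changes as log2 differences ± standard error from edgeR's quasi-likelihood model over all 20 libraries. A gene is called where its p, adjusted over the 12907 genes tested, is under 0.05. All 4 T3 libraries were run in lane 5, and replicates 1 to 4 of every other group in lanes 1 to 4. The T3 libraries held 6091917 to 7996156 reads, all below the lowest other library, hybrid 4 at 8791923. T3, its lane and its lower read totals therefore cannot be told apart. The labels do not say whether the livers share litters or cages. Markers of hepatocytes, 9 of 10 listed and none at 0, summed to 132542 to 254422 CPM in control livers, 163196 to 227338 after glucagon, 85892 to 129634 after T3, 95200 to 148867 after the combination and 80732 to 113668 after the hybrid. The livers labelled control 2 and glucagon 3 stood apart by skeletal muscle markers of 776 and 2827 CPM, and control 2 also by interferon response genes at 2006 CPM. Muscle markers were also raised in hybrid 4, at 514 CPM, and in combination 4, at 266 CPM. The alternative without control 2 and glucagon 3 kept both of these livers.

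Insig1 and Stard4 differed over the 5 groups (adjusted p = 5.53e-07 and 0.00041), in a test that called 42.4% of all genes. Both were called lower than control after T3, the combination and the hybrid, though 1 combination liver lay within the control range of Stard4. Lrp1 (adjusted p = 0.058), Scap (0.0639), Srebf2 (0.193), Insig2 (0.256) and Mylip (0.948) were not called in the test over the 5 groups. The plot of the 7 members by liver shows these values.

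**Figure D1:**
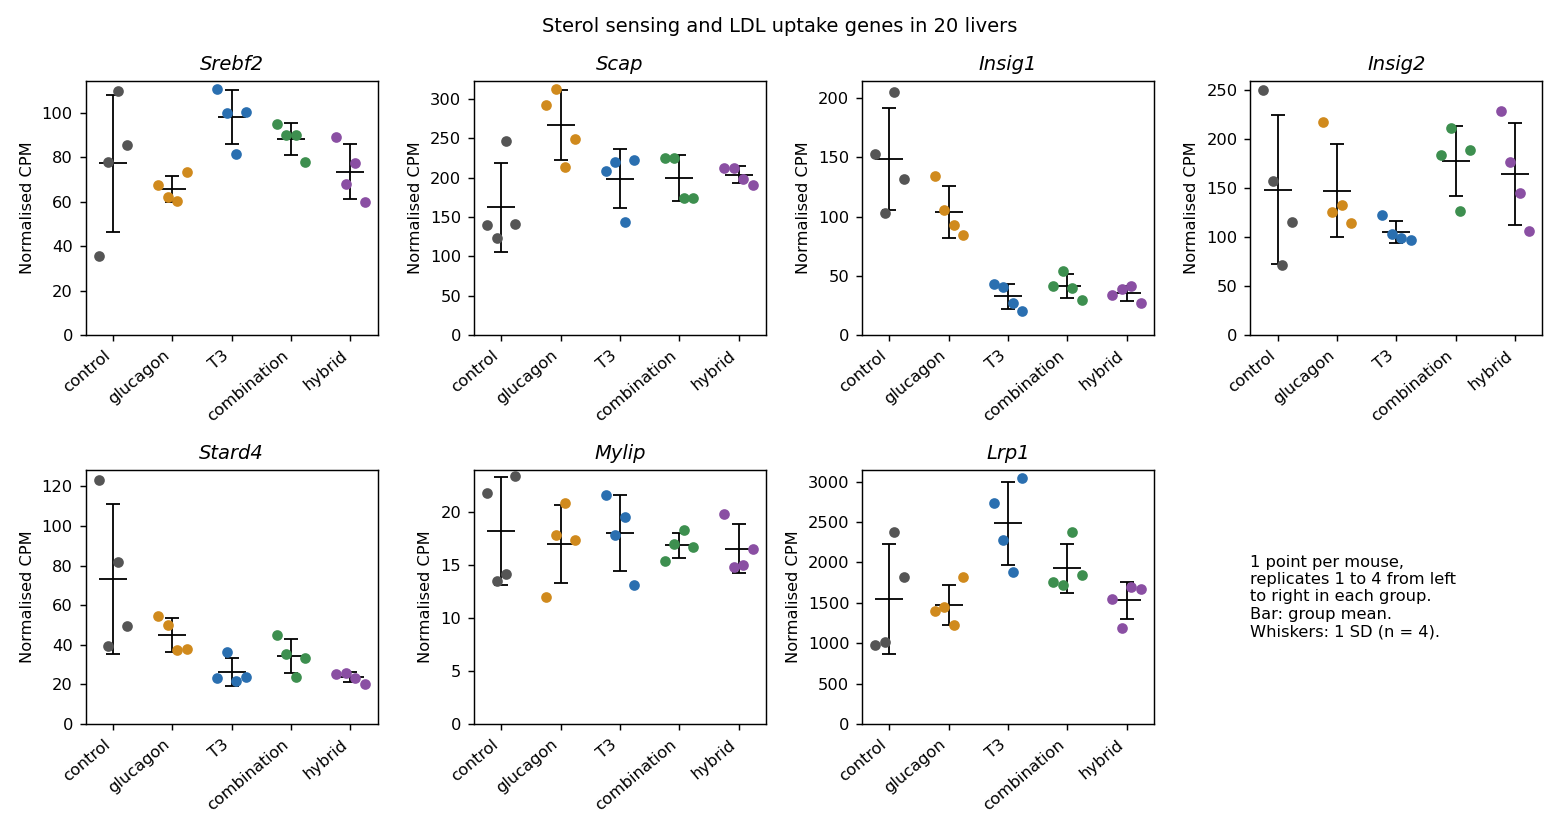
Normalised CPM of the 7 members (one panel each, linear axis from 0) in the 5 groups, with 1 point per mouse, a bar at the group mean and whiskers of 1 SD (n = 4). Insig1 in the 12 livers given T3, the combination or the hybrid lies at or below 54.1 CPM, under every control and glucagon liver, while Mylip stays between 12.0 and 23.4 CPM in all 20.

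Insig1 was the member with the clearest response. Its product retains SCAP in the endoplasmic reticulum. Control livers held 153, 103, 205 and 132 CPM and glucagon livers 134, 106, 92.6 and 84.1. T3 livers held 43.0, 40.5, 26.9 and 20.5 CPM, combination livers 41.3, 54.1, 40.1 and 29.7, and hybrid livers 34.0, 38.8, 41.3 and 27.1. None of the 12 livers that received T3 in any form reached the lowest of the 8 livers that did not.

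Against control, Insig1 fell by 2.18 ± 0.26 on the log2 scale after T3 (adjusted p = 1.32e-05), a mean level 4.52-fold lower, in a comparison that called 18.0% of all genes. It fell by 1.84 ± 0.25 after the combination (adjusted p = 3.43e-05), where 20.1% of genes were called. After the hybrid it fell by 2.07 ± 0.25 (adjusted p = 8.68e-06), where 24.4% of genes were called. Glucagon alone gave -0.51 ± 0.24 (95% interval -1.01 to -0.0023, adjusted p = 0.143), and its values overlapped those of control. T3 added to glucagon, the combination against glucagon, gave -1.33 ± 0.25 (adjusted p = 0.000566), which was present in 4 of 4 lanes. In bulk liver, fewer cells of a type and less RNA per cell cannot be told apart. The summed hepatocyte markers were also lower in the T3-treated groups, with medians over the 9 genes of -0.79 after T3, -0.54 after the combination and -0.72 after the hybrid on the log2 scale, and their part in the Insig1 difference was not tested.

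In the order of mean levels, Insig1 stood at 148 CPM in control, 104 after glucagon, 41.3 after the combination, 35.3 after the hybrid and 32.7 after T3. Only the step from glucagon to the combination was called. The combination and the hybrid differed by -0.23 (hybrid minus combination, 95% interval -0.74 to 0.29, adjusted p = 0.887), and the hybrid and T3 by 0.11 (interval -0.41 to 0.62, adjusted p = 0.84). Against glucagon, the hybrid gave -1.56 ± 0.25 (adjusted p = 0.00013), in a comparison that called 25.2% of all genes. T3 against glucagon gave -1.67 ± 0.25 (adjusted p = 4.63e-05), where 31.3% of genes were called.

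Insig2, the other INSIG, was most abundant after the combination and least after T3, without a called difference. Control livers were spread widely, at 250, 157, 71.5 and 115 CPM. Glucagon livers held 217, 126, 132 and 114 CPM, T3 livers 122, 103, 99.0 and 96.8, combination livers 184, 211, 127 and 188, and hybrid livers 228, 177, 145 and 106. The T3 livers lay at the low end and every combination liver lay above every T3 liver.

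Against control, its change was -0.50 ± 0.30 after T3 (adjusted p = 0.261), 0.26 ± 0.30 after the combination (adjusted p = 0.585) and 0.14 ± 0.30 after the hybrid (adjusted p = 0.773). The combination stood 0.75 ± 0.30 above T3 (adjusted p = 0.284), in a comparison that called 1.39% of genes. That difference passed with the 2 groups fitted alone (adjusted p = 0.0202), a fit that called 523 genes in all, against 179 in the main fit. By mean level the order was 177 CPM after the combination, 164 after the hybrid, 148 in control, 147 after glucagon and 105 after T3, and no neighbours in it differed by the test.

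Because both genes are read from the same library, the reads of Insig1 per read of Insig2 compare the pair without scaling. This ratio depends on the lengths of the transcripts, so only its differences between livers are read. It was 0.613, 0.659, 2.87 and 1.15 in control livers and 0.619 to 0.841 after glucagon. It was 0.211 to 0.395 after T3, 0.158 to 0.317 after the combination and 0.149 to 0.285 after the hybrid. The 12 livers given T3 in any form thus had fewer Insig1 reads per Insig2 read than each of the other 8, as the plot of the ratio shows. The high control value came from the liver labelled control 3, which had both the highest Insig1 and the lowest Insig2 of its group.

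**Figure D2:**
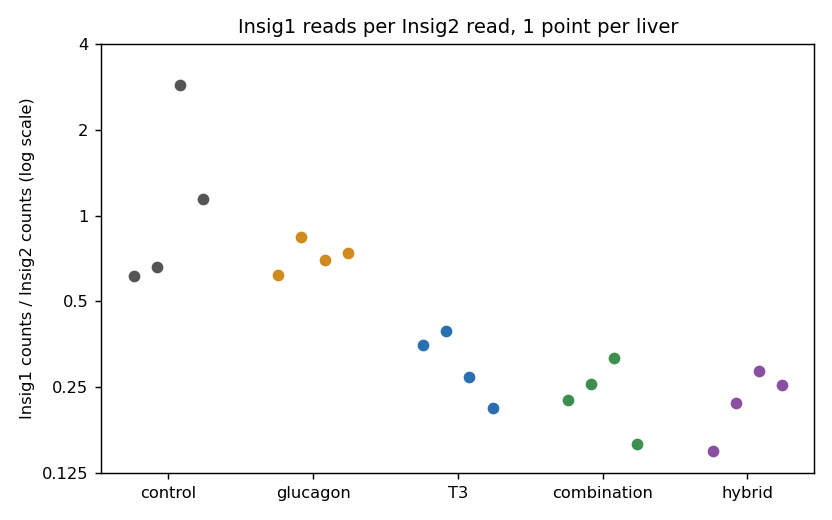
Insig1 counts divided by Insig2 counts in each liver (log axis, 1 point per mouse) for the 5 groups. The T3, combination and hybrid livers lie between 0.149 and 0.395 and the control and glucagon livers between 0.613 and 2.87.

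Stard4, the sterol carrier, lies on chromosome 18 (33199355 to 33213862, - strand) and was also lowest after T3 and the hybrid. Control livers held 123, 39.3, 81.8 and 49.3 CPM and glucagon livers 54.3, 49.8, 37.5 and 37.6. T3 livers held 23.1, 36.6, 21.9 and 23.6 CPM, combination livers 45.1, 35.1, 23.8 and 33.3, and hybrid livers 25.3, 25.5, 23.5 and 20.3. The T3 and hybrid livers all lay below every control liver, while one combination liver lay within the control range.

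Stard4 fell after all 3, with changes of -1.48 ± 0.28 after T3 (adjusted p = 0.00163), -1.09 ± 0.28 after the combination (adjusted p = 0.00915) and -1.63 ± 0.28 after the hybrid (adjusted p = 0.000326), each against control. The liver labelled control 1 had the highest Stard4 of the series, and without it the combination gave -0.72 (adjusted p = 0.044). With only the compared groups fitted, the combination was no longer called (adjusted p = 0.0824). Glucagon alone gave -0.71 ± 0.28 (adjusted p = 0.0736). Without control 1 it was -0.33 (adjusted p = 0.377), and it passed without control 2 (-0.91, adjusted p = 0.017) and without control 4 (-0.86, adjusted p = 0.0426).

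Set against glucagon, Stard4 fell by 0.92 ± 0.28 after the hybrid (adjusted p = 0.0201) and fell by 0.77 ± 0.28 after T3 (adjusted p = 0.0429), and both groups lay wholly below the glucagon livers. The hybrid call was lost without glucagon 1, glucagon 2 or hybrid 4 (adjusted p = 0.0506 to 0.0629), and the T3 call without glucagon 1 or 2 or without T3 replicate 1, 3 or 4 (adjusted p = 0.0946 to 0.117). The combination differed from glucagon by -0.38 (95% interval -0.96 to 0.19, adjusted p = 0.357). Its mean levels ran from 73.4 CPM in control through 44.8 after glucagon, 34.3 after the combination and 26.3 after T3 to 23.6 after the hybrid, and no step between neighbours was called.

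Scap, the escort of the SREBP precursors, was the one member called after glucagon against control. Control livers held 140, 123, 246 and 141 CPM and glucagon livers 292, 312, 214 and 248. T3 livers held 208, 220, 144 and 223 CPM, combination livers 224, 224, 175 and 174, and hybrid livers 212, 212, 199 and 190. The glucagon livers were above 3 of the 4 control livers, and the liver labelled control 3 lay inside the glucagon range.

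Scap rose by 0.72 ± 0.20 after glucagon against control (adjusted p = 0.0144), a 1.64-fold difference, in a comparison that called 21.2% of all genes, so 1 call among 7 members is near the background. The rise was seen in 3 of 4 lanes. It was not called without glucagon 2 (adjusted p = 0.0501) or with the 2 groups fitted alone (adjusted p = 0.0958). Leaving out control 3 gave 0.99. T3 gave 0.29 ± 0.20 (adjusted p = 0.324), the combination 0.30 ± 0.20 (adjusted p = 0.308) and the hybrid 0.33 ± 0.20 (adjusted p = 0.25), and each of these passed without control 3 (0.56, 0.56 and 0.59, adjusted p = 0.0241, 0.0218 and 0.0158). Leaving out control 3 also raised the calls over all genes, from 2317 to 3179 for T3 and from 2598 to 3552 for the combination.

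All 4 hybrid livers had less Scap than all 4 glucagon livers, a difference of -0.39 ± 0.20 that was not called over the 5 groups (adjusted p = 0.165) and passed with those 2 groups alone (adjusted p = 0.0436). The combination gave -0.42 ± 0.20 against glucagon (adjusted p = 0.145), and with those groups alone the change was -0.42 and passed (adjusted p = 0.047). The groups fitted alone called 4162 genes in all for the hybrid and 4177 for the combination against glucagon. The main fit called 3255 and 2906. The mean level was 267 CPM after glucagon, 203 after the hybrid, 199 after the combination, 199 after T3 and 162 in control, and no neighbouring groups differed by the test.

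Srebf2 encodes the SREBP-2 precursor and holds the gene of the microRNA miR-33 within it. Control livers held 35.7, 78.0, 110 and 85.7 CPM and glucagon livers 67.6, 62.0, 60.2 and 73.4. T3 livers held 110, 99.9, 81.6 and 100.2 CPM, combination livers 95.0, 90.1, 89.9 and 78.0, and hybrid livers 89.0, 67.9, 77.3 and 60.0. Control 1 had by far the lowest value, and the T3 and combination livers all lay above all glucagon livers.

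No treatment changed Srebf2 against control by the test, with 0.34 ± 0.22 after T3 (adjusted p = 0.297), 0.19 ± 0.22 after the combination (adjusted p = 0.578), -0.07 ± 0.22 after the hybrid (adjusted p = 0.858) and -0.23 ± 0.22 after glucagon (adjusted p = 0.492). Without control 1 the glucagon difference was -0.46 and passed (adjusted p = 0.034). T3 stood 0.58 ± 0.22 above glucagon (adjusted p = 0.0558) and the combination 0.42 ± 0.22 above it (adjusted p = 0.188). Both passed with the compared groups fitted alone (adjusted p = 0.00217 and 0.00991), and the combination was higher than glucagon in 4 of 4 lanes. Those fits called 5068 and 4177 genes in all, against 4042 and 2906 in the main fit. Mean levels ran from 98.0 CPM after T3 through 88.3 after the combination, 77.3 in control and 73.6 after the hybrid to 65.8 after glucagon, with no called step between neighbours.

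Mylip, the ligase that lowers receptors of the LDL receptor family, held nearly the same level in every group. It ranged from 13.5 to 23.4 CPM in control livers, 12.0 to 20.8 after glucagon, 13.1 to 21.6 after T3, 15.4 to 18.2 after the combination and 14.8 to 19.7 after the hybrid. The change after T3 was -0.01 (95% interval -0.43 to 0.41) and after the hybrid -0.14 (interval -0.55 to 0.28), so a difference of 1 on the log2 scale lies outside both intervals.

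Lrp1, the endocytic receptor, was highest after T3. Control livers held 976, 1015, 2383 and 1825 CPM and glucagon livers 1400, 1444, 1231 and 1816. T3 livers held 2731, 2284, 1878 and 3039 CPM, combination livers 1764, 1724, 2378 and 1844, and hybrid livers 1551, 1192, 1699 and 1674. The control livers fell into a low and a high pair, and all T3 livers lay above all glucagon and all hybrid livers.

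Lrp1 rose by 0.75 ± 0.25 in T3 against glucagon livers (adjusted p = 0.0256), a call that was lost without any of glucagon 1, 2 or 3 or T3 replicates 1 or 4 (adjusted p = 0.0556 to 0.0804). T3 against control gave 0.68 ± 0.25 (adjusted p = 0.062). That value also passed with the replicate number as a block (0.74, adjusted p = 0.0415), although the numbers of the T3 livers mark no shared lane and pair them with no control. It passed in DESeq2 (adjusted p = 0.0354), without control 3 (0.96, adjusted p = 0.00737) and without T3 replicate 3 (adjusted p = 0.0468). Over all genes, DESeq2 called 2677 and the fit without control 3 called 3179, against 2317 in the main fit. The hybrid stood at -0.70 ± 0.25 against T3 (adjusted p = 0.0976), in a comparison that called 6.36% of genes. This passed in DESeq2 (adjusted p = 0.0458), which called 1191 genes in all, against 821 in the main fit. It also passed with those 2 groups fitted alone (-0.71, adjusted p = 0.0309), a fit that called 1562 genes in all. The combination differed from control by 0.31 ± 0.25 and the hybrid by -0.02 ± 0.25, neither called. Macrophage and Kupffer cell markers, 12 of 13 listed and none at 0, were also highest after T3, summing to 1452 to 1829 CPM against 647 to 1141 in control, 487 to 601 after glucagon, 1074 to 1292 after the combination and 1060 to 1497 after the hybrid. All 12 of those markers were called higher in T3 than in glucagon livers. Stellate cell and fibroblast markers, 11 tested, had median changes of -0.51 after T3 against control and 0.04 against glucagon. The part of either list in the Lrp1 difference was not tested. Mean Lrp1 was 2483 CPM after T3, 1927 after the combination, 1550 in control, 1529 after the hybrid and 1473 after glucagon, with no called step between neighbours.

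**Figure D3:**
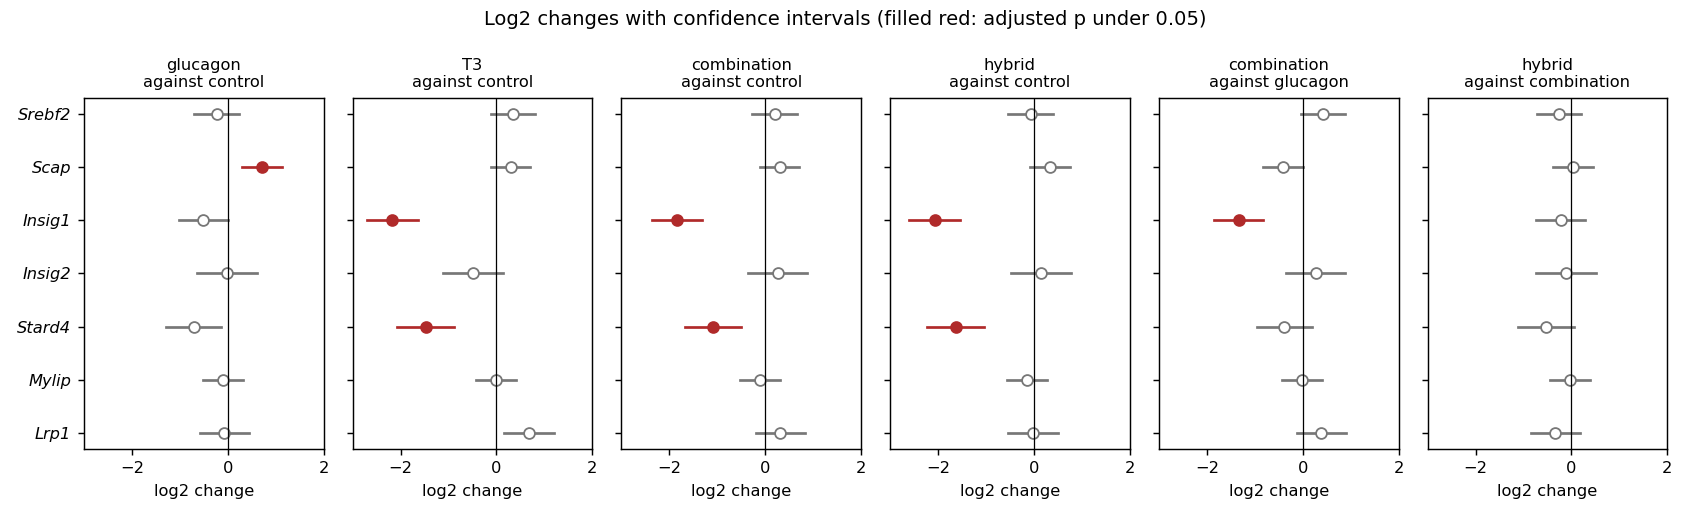
Log2 change of each member with its 95% interval in 6 comparisons, with filled red points for an adjusted p under 0.05 and a line at 0. Insig1 is called lower in 4 panels, Stard4 in 3 and Scap is called higher after glucagon, while no point is called for the hybrid against the combination.

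Giving the hormones as one molecule or as separate agents made no called difference to a member. The edgeR test called 0 of 7 members and 0.0310% of all genes between hybrid and combination. At an unadjusted p under 0.05 there were 0 members, and DESeq2 called 0 members and 28 genes in all. The nearest was Stard4, at -0.54 in the hybrid (95% interval -1.12 to 0.05, adjusted p = 0.736), and it was lower in 4 of 4 lanes. Lrp1 was lower in each hybrid liver than in each combination liver, by -0.33 (interval -0.85 to 0.18, adjusted p = 0.825). Srebf2 gave -0.26 (interval -0.73 to 0.20), Insig2 -0.11 (interval -0.74 to 0.51), Scap 0.03 (interval -0.39 to 0.44) and Mylip -0.03 (interval -0.44 to 0.39). These intervals leave room for differences of up to 1.12 on the log2 scale, and the doses behind them are not known.

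Compared with T3 alone, neither the combination nor the hybrid had a called member. The combination against T3 had 0 of 7 called in edgeR, where 1.39% of all genes were called. DESeq2 called 0 members there and 339 genes in all. The member of smallest p in edgeR was Insig2. The hybrid against T3 also had 0 of 7 called in edgeR, where 6.36% of all genes were called. Its members of smallest p in edgeR were Lrp1 and Insig2. DESeq2 called 1 member, Lrp1, and 1191 genes in all.

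Whether the combination equalled the summed changes of the single hormones was tested as an interaction, which called 3.73% of all genes. It called 0 of 7 members in edgeR and in DESeq2. The members of smallest p in edgeR were Stard4, Scap and Insig1. Stard4 had a departure of 1.10 ± 0.39 (adjusted p = 0.151), the combination being less low than the sum of both changes, and it passed without control 2 (1.29, adjusted p = 0.042). Insig1 had 0.84 ± 0.35 (adjusted p = 0.212). Scap had -0.71 ± 0.28 (adjusted p = 0.193) and passed without control 3 (-0.99, adjusted p = 0.0152). Over all genes, that fit called 821, against 482 in the main fit.

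The genes around the members moved in both directions. Of 25 tested genes of SREBP processing and INSIG turnover, 2 rose and 4 fell after glucagon, 7 fell after T3, and 2 rose and 5 fell after both the combination and the hybrid, each against control. Their median changes were 0.09, -0.26, -0.20 and -0.09, beside -0.09, -0.05, -0.07 and -0.05 over all genes. The same 4 comparisons called 21.2%, 18.0%, 20.1% and 24.4% of all genes. Paqr3, a Golgi protein that anchors SCAP and SREBP, rose by 1.84 ± 0.19 after glucagon (adjusted p = 5.96e-07), by 0.58 ± 0.18 after the combination (adjusted p = 0.0317) and by 0.99 ± 0.18 after the hybrid (adjusted p = 0.000594). Erlin1, an endoplasmic reticulum protein that takes part in INSIG control and degradation, fell in all 4, with changes of -1.38 ± 0.21 after glucagon, -0.86 ± 0.21 after T3, -1.59 ± 0.21 after the combination and -1.63 ± 0.21 after the hybrid (adjusted p from 1.53e-05 to 0.00803). Sec23b, a subunit of the COPII coat that buds vesicles from the endoplasmic reticulum, fell after T3, the combination and the hybrid, with changes of -0.90 ± 0.14 after T3, -0.93 ± 0.14 after the combination and -0.92 ± 0.14 after the hybrid. Ube2g2, a ubiquitin-conjugating enzyme of endoplasmic reticulum degradation, rose by 0.80 ± 0.15 after glucagon, 0.84 ± 0.15 after the combination and 0.91 ± 0.15 after the hybrid.

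Cholesterol synthesis enzymes under SREBP-2 were split as well. Of 19 tested, 4 rose and 4 fell after glucagon, 1 rose and 5 fell after T3, 2 rose and 4 fell after the combination, and 3 rose and 3 fell after the hybrid. The median changes were -0.35, -0.43, -0.20 and -0.19. Over all genes, 21.2%, 18.0%, 20.1% and 24.4% were called in these comparisons. Pmvk, phosphomevalonate kinase, rose by 3.67 ± 0.35 after glucagon, from 19.5 to 248 CPM (adjusted p = 2.5e-07), by 2.73 ± 0.34 after the combination and by 2.45 ± 0.33 after the hybrid. Mvk, mevalonate kinase, rose by 1.85 ± 0.30 after glucagon, and its changes of 0.76 ± 0.30 after the combination (adjusted p = 0.078) and 0.37 ± 0.30 after the hybrid (adjusted p = 0.399) were not called. Hmgcs1, which makes the precursor of mevalonate, fell in all 4, with changes of -1.09 ± 0.21 after glucagon, -1.11 ± 0.21 after T3, -0.92 ± 0.21 after the combination and -1.10 ± 0.21 after the hybrid (adjusted p from 0.000824 to 0.00446).

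In the list of the LDL receptor family, its adaptors and lysosomal release, 25 genes were tested. Of these, 1 rose and 3 fell after glucagon, and 1 rose and 2 fell after T3. After the combination 2 rose and 2 fell, and after the hybrid 4 rose and 4 fell. These comparisons called 21.2%, 18.0%, 20.1% and 24.4% of all genes. Lrp5, a receptor of the same family, rose by 1.20 ± 0.20 after glucagon, 0.70 ± 0.20 after the combination and 0.79 ± 0.20 after the hybrid. Npc1, which moves cholesterol out of lysosomes, fell by 0.89 ± 0.18 after glucagon and fell by 0.59 ± 0.18 after the hybrid, and after the combination the change was -0.41 ± 0.18 (adjusted p = 0.121).

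Among 19 tested sterol carriers and esterification genes, 1 rose and 4 fell after glucagon, and 2 rose and 5 fell after T3. After the combination 3 rose and 7 fell, and after the hybrid 5 rose and 6 fell. The shares of all genes called were 21.2%, 18.0%, 20.1% and 24.4%. Scp2, a sterol carrier and peroxisomal thiolase, fell, with changes of -1.98 ± 0.24 after T3, -1.58 ± 0.24 after the combination and -1.71 ± 0.24 after the hybrid (adjusted p from 2.13e-05 to 0.000118). Soat2, which esterifies cholesterol in hepatocytes, fell, with changes of -0.83 ± 0.20 after glucagon and -1.35 ± 0.20 after the hybrid, and it also fell after the combination, to 37.1 CPM from 74.0 in control (adjusted p = 0.00134). Osbpl11, an oxysterol-binding protein relative, rose by 1.79 ± 0.13 after glucagon, by 0.74 ± 0.13 after the combination and by 1.02 ± 0.13 after the hybrid.

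Of 13 genes for LXR and its targets, 1 rose and 3 fell after glucagon, after T3 and after the hybrid. After the combination 2 fell. Over all genes, 21.2% were called after glucagon, 18.0% after T3, 20.1% after the combination and 24.4% after the hybrid. Srebf1, which encodes the related SREBP-1 and belongs also to the processing list, fell, with changes of -1.33 ± 0.36 after T3 (adjusted p = 0.0147), -1.32 ± 0.36 after the combination (adjusted p = 0.0125) and -1.95 ± 0.36 after the hybrid (adjusted p = 0.000592). Abca1, the exporter of cholesterol to apolipoproteins, rose by 0.64 ± 0.19 after glucagon (adjusted p = 0.0192), and the combination against glucagon gave -0.97 ± 0.19 (adjusted p = 0.000895). Without control 2 and glucagon 3, the LXR list had 0 higher and 1 lower after glucagon and 1 higher and 6 lower after the combination. That fit called 2182 and 2811 genes in all, against 2732 and 2598 in the main fit. The share of each list called is drawn in the chart of the pathway lists.

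**Figure D4:**
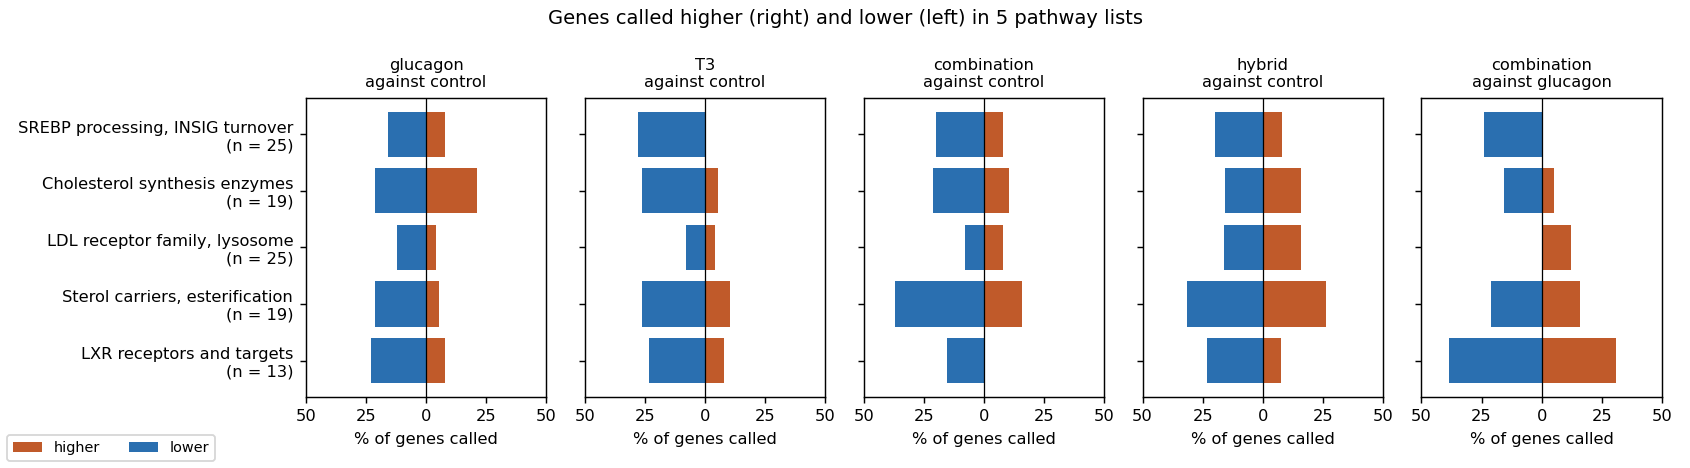
Percentage of the tested genes of each of 5 lists called higher (right) or lower (left) in 5 comparisons, on a linear axis centred on 0, with the number tested beside each name. T3 has called genes of SREBP processing and INSIG turnover on the lower side alone, 7 of 25, in a comparison that called 944 genes higher and 1373 lower of 12907.

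T3 added to glucagon, a comparison that called 22.5% of all genes, changed 1 of the 7 members, Insig1. In it 6 of the 25 processing genes fell and none rose, and 1 of 19 synthesis enzymes rose and 3 fell. Of the uptake and lysosomal genes 3 rose, of the sterol carriers 3 rose and 4 fell, and of the LXR genes 4 rose and 5 fell. Their medians were -0.11, -0.05, 0.01, -0.08 and 0.04, against 0.00 over all genes.

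The genes most like Insig1 over the 20 livers were found among 5283 genes by the smallest root mean square difference of centred log2 CPM. They were Gclc (0.36), a subunit of the enzyme that limits glutathione synthesis, Sgms2 (0.37), a sphingomyelin synthase, and Ghr (0.43), the growth hormone receptor, beside a root mean square of 0.95 for Insig1 itself. Sgms2, for example, went from 93.7 ± 16.4 CPM (SD, n = 4) in control to 27.3 ± 3.06 after T3 and 23.5 ± 9.24 after the hybrid. For Stard4 they were Scrn3 (0.29), Lipc (0.30), which encodes hepatic lipase, and Klkb1 (0.31), which encodes plasma prekallikrein, beside 0.66 for Stard4 itself. Lipc went from 159 ± 62.9 CPM (SD, n = 4) in control to 84.9 ± 15.6 after T3 and 63.8 ± 6.65 after the hybrid.

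In the GENCODE M21 annotation of GRCm38, Insig1 lies at chr5:28071363-28078662 (+ strand), Insig2 at chr1:121304353-121332589 (-), Scap at chr9:110333288-110384950 (+), Srebf2 at chr15:82147181-82205379 (+), Lrp1 at chr10:127538161-127621148 (-) and Mylip at chr13:45389742-45412022 (+). Gm37174 lies across Insig2, 5830462I19Rik across Scap and Gm16217 across Lrp1 on the opposite strand, and Gm49502 and Mir33 across Srebf2 on the same strand. None of these 5 is listed in the count files, and since no source used here gives the strand setting of the counting, reads of such partners cannot be told apart from those of the member.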

How the data were processed

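Whole-gene read counts per liver were made by the authors against mm10 using HTSeq, according to the submitters' processing notes, from RNA extracted with a Qiagen kit and Lexogen libraries, per the labels' protocols. The deposited values are raw counts. No source used here gives the aligner, annotation, strand setting or versions. Every one of the 13319 symbols reached 20 counts in at least 1 library, so lower genes were not analysed here. The files hold no rows that name no gene.

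The counts were fitted with edgeR 4.0.16 (R 4.3.3) by its quasi-likelihood test with TMM scaling over 20 libraries and 5 group means, after filterByExpr (minimum count 10, minimum total 15), which dropped 412 genes and left 12907. P-values were Benjamini-Hochberg adjusted over those genes and called under 0.05. The common dispersion corresponds to a biological coefficient of variation of 27.8%, with 15 residual degrees of freedom. Log2 CPM used a prior count of 2. The labels give every library a number and a lane. In 16 libraries the number marks the lane (lanes 1 to 4), so it was used as a block in an alternative. The correlations of same-lane deviations ran from -0.318 to 0.462 over 24 pairs. P-values set the differences between group means against the spread between livers within the groups. The script was tested on simulated counts with known changes.

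Promoter windows are from RefSeq (GRCm38.p6) and positions from GENCODE M21. The named genes were all 7 members and, for each pathway list and main comparison, chosen from the 3 called genes of smallest p in each direction. For members whose group means of log2 CPM span at least 1, the 3 nearest genes were named too, from those averaging 20 CPM or more and with predicted genes left out. Members and lists were chosen with earlier results of these data known. Alternatives were RLE scaling, no filter, the block, the compared groups alone, DESeq2 1.42.0, leaving out each liver, and leaving out control 2 with glucagon 3, chosen after the data were seen.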

Additional observations from a re-analysis of the deposited data

Results flagged for a closer look

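The highest or lowest liver of each of the 35 sets of 4 livers (7 members in 5 groups) was compared with its neighbours by Dixon's ratio of gap to range, at its 95% critical value, which chance passes in about 1 set in 20. There were 2 such livers. Control 3 had 245.8 CPM of Scap against 141 in the next control liver (ratio 0.856), and Scap after glucagon was 0.99 above control without it. T3 replicate 2 had 36.6 CPM of Stard4 against 23.6 in the next T3 liver (ratio 0.883), and no cause was tested for either.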

How the results depend on the processing

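The 13 called member changes gave 190 values under the alternatives, of which 174 stayed called, 16 lost the call and 0 turned direction. The 64 uncalled changes gave 986 values, of which 20 became called and 73 turned direction, in 25 changes whose size was at most 0.19 on the log2 scale. With the compared groups fitted alone, the number of members called was 0 for glucagon against control, 1 for the combination against control, 1 for the hybrid against T3, 3 for the combination against glucagon and 1 for the combination against T3. DESeq2 called 1 for the hybrid against T3 and 4 for any difference among the groups, and leaving out control 2 and glucagon 3 gave 2 for glucagon against control. The matching counts over all genes were 1191, 6252 and 2182, where the main fit called 821, 5473 and 2732. Over all genes, the compared groups alone called 976 for glucagon, 503 for T3, 918 for the combination and 1208 for the hybrid against control, 16 for the hybrid against the combination, 1562 for the hybrid against T3 and 523 for the combination against T3, where DESeq2 called 339. Against glucagon they called 4177 for the combination, 4162 for the hybrid and 5068 for T3, where the main fit called 2906, 3255 and 4042. DESeq2 called 28 genes for the hybrid against the combination, and 16 were called without control 2 and glucagon 3. Leaving out single livers gave from 0 to 2 members called for glucagon against control, 2 to 4 for T3 against control, 2 to 3 for the combination and 2 to 3 for the hybrid against control, 1 to 2 for the hybrid and 1 to 3 for T3 against glucagon, 0 to 1 for the departure from the sum and 2 to 4 for any difference. The counts over all genes moved too. T3 against control went from 2317 to between 1528 (without T3 replicate 1) and 3179 (without control 3). Without control 3, glucagon against control went from 2732 to 3760 and the combination against control from 2598 to 3552. Their lowest counts were 1988 and 1855. The hybrid against control went from 3144 to between 2333 and 3719, and any difference from 5473 to between 4713 and 6510. The departure went from 482 to 821 without control 3. The combination against T3 went from 179 to between 83 (without combination 1) and 135. The hybrid against T3 went from 821 to between 406 (without hybrid 2) and 708. The hybrid against the combination went from 4 to between 1 and 5. The replicate block changed the call of 1 member change, Lrp1 in T3 against control (0.74, adjusted p = 0.0415), where the T3 numbers mark no lane. Turned directions were Insig2 in glucagon against control (0.0035 with RLE scaling, 0.0038 in DESeq2, 0.016 with the groups alone, 0.062 without control 2 and glucagon 3, and 0.054 and 0.066 with the replicate block over 20 and 16 libraries), Lrp1 in hybrid against control (0.019 and 0.038 with those blocks) and in glucagon against control (0.0053 with the block over 16 libraries), and the departure of Mylip (0.0023 with no filter). Without control 2 and glucagon 3 they were Mylip in hybrid against glucagon (0.0725), combination against glucagon (0.092) and its departure (0.23), Lrp1 in hybrid against glucagon (-0.028) and Scap in combination against T3 (-0.0026). Leaving out single livers turned the following. For Insig1 the range was -0.0583 to 0.27 for hybrid against T3. For Insig2 the ranges were -0.27 to 0.37 for glucagon against control, -0.32 to 0.0596 for hybrid against combination, -0.0939 to 0.52 for hybrid against control and -0.0459 to 0.40 for hybrid against glucagon. For Lrp1 the ranges were -0.23 to 0.21 for glucagon against control, -0.18 to 0.26 for hybrid against control and -0.0291 to 0.16 for hybrid against glucagon. For Mylip the ranges were -0.13 to 0.13 for T3 against control, -0.047 to 0.21 for T3 against glucagon, -0.22 to 0.000229 for combination against T3, -0.23 to 0.0222 for combination against control, -0.16 to 0.0914 for combination against glucagon, -0.15 to 0.11 for the departure from the sum, -0.21 to 0.0441 for glucagon against control, -0.13 to 0.0324 for hybrid against combination, -0.25 to 0.000719 for hybrid against control and -0.18 to 0.0704 for hybrid against glucagon. For Scap the ranges were -0.12 to 0.0672 for combination against T3, -0.0889 to 0.094 for hybrid against T3 and -0.029 to 0.10 for hybrid against combination. For Srebf2 the ranges were -0.0464 to 0.40 for combination against control, -0.15 to 0.30 for the departure from the sum and -0.30 to 0.14 for hybrid against control. For Stard4 the range was -0.23 to 0.0559 for hybrid against T3. The cause of these shifts was not tested. The lowest count of a member in a library was 82.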
